A study of Mus musculus with 7 samples.

Results

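Eomes, T (Brachyury), Tbx3 and Tbx6 are 4 members of the T-box family, transcription factors that share a DNA-binding domain named after T. They were found in the deposited tables by NCBI gene number and are 4 of 24990 features listed and 4 of 10265 tested. In the gastrulating mouse embryo Eomes acts first among them, in the primitive streak, where it directs definitive endoderm and the earliest cardiac mesoderm. T maintains the streak and posterior mesoderm, Tbx6 commits cells to paraxial mesoderm, and Tbx3 works in stem cell self-renewal and in early endoderm and mesoderm. NODAL and WNT signals switch on Eomes and T.

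The measurements were 3′ RNA-seq of R1 mouse embryonic stem cells, differentiated for 4 days as embryoid bodies in serum medium without Lif, starting from hanging drops of 500 cells freed of feeder fibroblasts. The study asks how the Meteor locus, which makes a long non-coding RNA beside Eomes, acts on Eomes. By title there were 2 wild-type libraries (WT1, WT2), 2 with the Meteor promoter knocked out (pKO1, pKO2), 1 with that promoter inverted (pInv), 1 empty-vector control (Ctrl) and 1 with a CRISPR knockdown of Meteor (KD), for which the labels name both Cas9 and dCas9. The genotype field contradicts 5 of the 7 titles: it gives the knockout for WT1 and WT2, the inversion for pKO1, and wild type for pKO2 and pInv. Groups below follow the titles, and each direction depends on that choice. Nothing in the labels says that the 2 libraries of a group are separate cultures or clones, and a p-value here may reflect technical spread alone. Meteor itself was not analysed here, so no targeted gene checks the titles.

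WT2 was the shallowest library (1898350 expected counts) and WT1 the deepest (2564478). Levels are CPM, the counts scaled to a common library size with a TMM factor. Intervals on single libraries are exact 95% counting intervals and leave out all other error. WT2 stood apart: it had the lowest level of the 7 libraries in 29.3% of 4681 genes averaging at least 20 CPM. Stem cell and epiblast markers were all present (10 of 10 at 1 CPM or more, summed level 2800.1 to 3623 CPM). Pou5f1 and Dnmt3b made up most of that sum. In WT2 Pou5f1 was at its highest of the 7 libraries (2188 CPM) and Dnmt3b at its lowest (870 CPM). Markers of trophoblast stem cells, which also express Eomes, summed to 6.60 CPM in WT2 and 25.4 to 43.5 CPM elsewhere (7 of 10 at 1 CPM or more in any library, Elf5 and Prl3d1 at 0 in all). Tfap2c made up most of that sum outside WT2. Extraembryonic endoderm markers summed to 51.0 to 65.7 CPM (7 of 10, Sox7 at 0), neural markers to 255 to 345 CPM (6 of 10, Sox1 at 0), and feeder fibroblast markers to 4.06 to 8.77 CPM (7 of 10). In bulk samples, fewer cells of a type and less RNA per cell cannot be told apart.

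The sequence just ahead of the start site is shown for the 3 members that the RefSeq promoter table (GRCm38.p6) holds, because these genes share a family and an embryonic site yet differed in how much they varied. Each run is 250 bases on the plus strand, at chr9:118477939-118478188 for Eomes, chr17:8434173-8434422 for T and chr7:126781233-126781482 for Tbx6. Capitals mark matches to AGGTGT (the core bound by T-box factors), CTTTGA (the core bound by TCF and LEF, the WNT effectors) and CCAAT, each on both strands, and to TATANA on the sense strand.
Eomes: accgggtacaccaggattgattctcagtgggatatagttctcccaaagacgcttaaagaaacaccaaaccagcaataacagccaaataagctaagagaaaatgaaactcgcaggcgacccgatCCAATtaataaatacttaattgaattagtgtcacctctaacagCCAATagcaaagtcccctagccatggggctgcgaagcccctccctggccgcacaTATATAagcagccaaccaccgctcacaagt
T: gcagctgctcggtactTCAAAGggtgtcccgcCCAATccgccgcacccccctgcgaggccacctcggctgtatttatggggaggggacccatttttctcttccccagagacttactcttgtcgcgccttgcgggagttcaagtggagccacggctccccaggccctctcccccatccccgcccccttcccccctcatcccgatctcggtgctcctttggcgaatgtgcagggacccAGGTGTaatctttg
Tbx6: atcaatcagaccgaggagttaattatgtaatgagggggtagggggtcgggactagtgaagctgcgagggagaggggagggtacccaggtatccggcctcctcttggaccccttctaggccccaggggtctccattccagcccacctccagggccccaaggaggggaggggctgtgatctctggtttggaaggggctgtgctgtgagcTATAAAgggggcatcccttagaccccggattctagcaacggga
The T window held 1 TCF/LEF core, 234 to 229 bases ahead of the start and on the minus strand, a CCAAT box, and 1 T-box core, 14 to 9 bases ahead. The Eomes window held 2 CCAAT boxes and a TATA box, and the Tbx6 window a TATA box. No matches overlapped. Of 32851 windows of this length, 11.8% held the T-box core, 13.8% the TCF/LEF core, 33.8% a CCAAT box and 16.4% a TATA box. A match describes letters only, no binding was measured, and no link to how much the genes varied was tested.

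Eomes lay above at least 98.5% of features in every library and T above at least 91.0%, while Tbx3 and Tbx6 were near the limit of detection. On the deposited per-length scale the median TPM over 7 libraries was 286 for Eomes, 298 for T, 2.96 for Tbx3 and 1.60 for Tbx6. Reads of a 3′ kit do not grow with transcript length, so TPM orders these genes only roughly. The gene models in the tables are also long: T has 4046 bases, against 2046 in its GENCODE M21 transcript. Of 17242 single-transcript features matched to GENCODE, 69.3% were within 100 bases of being 2000 bases longer.

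Eomes varied little. It stood at 459 CPM in WT1, 445 in pKO2, 421 in Ctrl, 399 in KD, 390.0 in pInv, 337 in pKO1 and 312 in WT2. WT and pKO each held a high and a low library, so both groups spanned the single libraries of pInv, Ctrl and KD. Neighbours in this order had overlapping counting intervals, apart from pInv (365 to 416) and pKO1 (313 to 363). The coefficient of variation over the 7 libraries was 13.7%, below that of 76.3% of those 4681 genes. In the GENCODE annotation the antisense gene Gm33460 overlaps Eomes, and its level was not analysed here. Of 1410 runs of 31 bases from the last 500 bases of Eomes transcripts, 15 also occur in Gm33460, on the opposite strand. Its part in the Eomes counts was not tested.

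T varied far more. It stood at 358 CPM in KD, 353 in pKO2, 340.1 in Ctrl, 294 in WT1, 226 in pKO1, 178 in pInv and 54.6 in WT2. The top 3 did not differ beyond counting error, and WT2 was 3.26-fold below its nearest neighbour, pInv (95% interval 2.60 to 4.14). The WT libraries alone spanned pInv and pKO1. The coefficient of variation was 43.6%, exceeded by 4.29% of the 4681 genes.

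**Figure D1:**
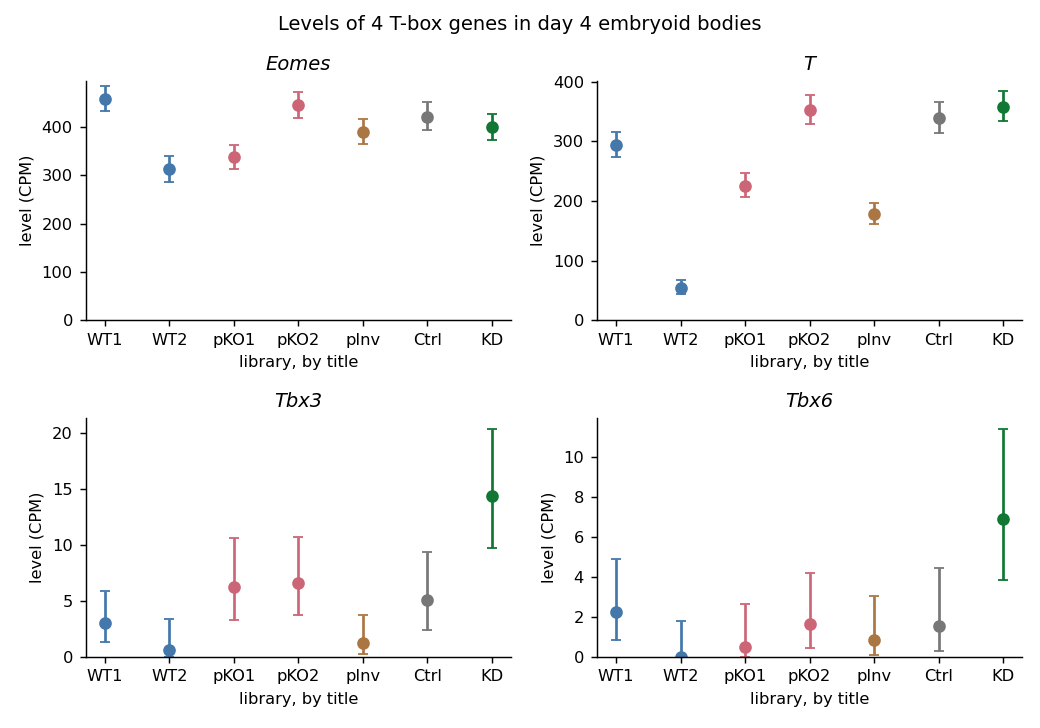
Level of each gene in CPM (vertical axes, each from 0) in each library by title (horizontal axes), with points coloured by group and bars giving exact 95% counting intervals (for the 0 of Tbx6 in WT2, the limit of 3 counts). Eomes stays between 312 and 459 CPM, T drops to 54.6 CPM in WT2, and KD is highest in Tbx3 (14.3 CPM) and Tbx6 (6.93 CPM).

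Tbx3 rested on 82 counts in all. Its level was 14.3 CPM in KD (31 counts), 6.57 in pKO2 (16), 6.21 in pKO1 (13), 5.08 in Ctrl (10), 2.999 in WT1 (8), 1.27 in pInv (3) and 0.60 in WT2 (1). Both pKO libraries lay above both WT libraries, as they did in 12% of the genes tested. Tbx3 passed the filter on low counts only through pKO1, pKO2, Ctrl and KD, so its inclusion depended on the groups in which it was high. Tbx3os2, a non-coding gene that lies after Tbx3 on the opposite strand, was at 0 in all 7 libraries, and the overlapping antisense gene Tbx3os1 was not analysed here.

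Tbx6 rested on 31 counts. It had 6.93 CPM in KD (15 counts), 2.25 in WT1 (6), 1.64 in pKO2 (4), 1.52 in Ctrl (3), 0.85 in pInv (2), 0.48 in pKO1 (1) and none in WT2, where a limit of 3 counts, used for a count of 0, allows up to 1.80 CPM. It entered the fit through KD alone. Counting intervals of the other 6 libraries overlapped throughout. That of KD (3.88 to 11.4 CPM) also overlapped those of WT1 (up to 4.89), Ctrl (up to 4.45) and pKO2 (up to 4.20). It lay above those of pInv, pKO1 and WT2. In the GENCODE annotation Ppp4c, a phosphatase subunit gene on the opposite strand, ends within 2000 bases after Tbx6, and Ypel3, on the same strand, ends 968 bases ahead of it, so the long models may meet. The strand setting is not given in the sources used here, and for Ypel3 strand would not separate the reads. Ppp4c was at 0 to 3.05 CPM. Ypel3 was at 35.1 CPM in KD, its highest, and at 17.8 in Ctrl, its lowest, so it stood higher in KD together with Tbx6. Its part in the Tbx6 counts was not tested.

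Eomes and T, which passed the filter in every library, were both lowest in WT2, as were 29.3% of the 4681 genes. T was highest in KD, as were 14.1%. Tbx6 entered through KD and Tbx3 through 4 libraries that leave out both WT, so their positions are not counted here. The gap within a group was widest in WT. Relative to WT1, WT2 had 0.186 times the T (95% interval 0.148 to 0.231), a lower ratio than in all but 1.18% of 4679 genes, and 0.680 times the Eomes (0.613 to 0.754), with 22.3% of genes lower. Relative to pKO1, pKO2 had 1.56 times the T (1.39 to 1.75) and 1.32 times the Eomes (1.20 to 1.45). Eomes and T therefore differed within groups by more than counting error. The share of counts on the 45S ribosomal RNA precursor was also highest in WT2, at 24.1% against 12.9% to 22.5%, and the trophoblast markers were lowest there. The part of either in these values was not tested.

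Because Eomes and T come from the same libraries, their ratio needs no scaling between libraries. WT2 held 5.71 counts of Eomes per count of T (95% interval 4.57 to 7.22) and pInv 2.19 (1.95 to 2.46). The other 5 libraries lay between 1.11 in KD (1.01 to 1.23) and 1.56 in WT1 (1.42 to 1.71), with pKO1 at 1.49, pKO2 at 1.26 and Ctrl at 1.24. The ratio thus set WT2 apart from all other libraries, its WT partner included, and pInv apart from the remaining 5, all beyond counting error. pInv is 1 library, so its ratio has no replicate.

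**Figure D2:**
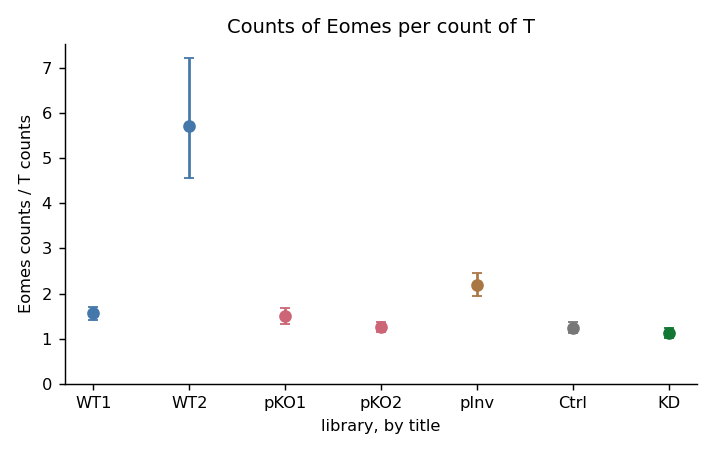
Counts of Eomes divided by counts of T (vertical axis, no unit, from 0) in each library by title (horizontal axis), with exact 95% counting intervals as bars. WT2 stands at 5.71 and pInv at 2.19, and the other 5 libraries lie between 1.11 and 1.56.

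Knockout of the Meteor promoter was compared with wild type first. None of the 4 genes passed, each with an adjusted p of 1 by edgeR, and no gene at all did (0% of 10265 in its quasi-likelihood fit, adjusted by Benjamini-Hochberg, 106 at an unadjusted p under 0.05, and 0 by DESeq2). Eomes averaged 391 ± 76.0 CPM in pKO and 385 ± 104 in WT (SD, n = 2 each), a log2 difference of 0.02 (SE 0.30) with a 95% interval from −0.68 to 0.72. T averaged 289 ± 89.7 CPM against 174 ± 169, a log2 difference of 0.72 (SE 0.65, −0.77 to 2.21). Without WT2 that difference was −0.0020, and without WT1 it was 2.39, so the value for T was set by which WT library was used. Tbx3 averaged 6.39 ± 0.25 CPM against 1.80 ± 1.70, a log2 difference of 1.35 (SE 0.76, −0.42 to 3.11), with 0.93 without WT2 and 2.25 without WT1. The pKO levels of Tbx3 rest on 13 and 16 counts, with counting intervals of 3.31 to 10.6 and 3.75 to 10.7 CPM. The SD of 0.25 is thus smaller than counting error. Tbx6 had a log2 difference of −0.13 (−3.45 to 3.20). In this fit a 2-fold change of Eomes lay outside its interval. For T, Tbx3 and Tbx6 a change of that size in at least 1 direction lay inside. The Eomes interval rests on 2 libraries per group that may not be separate cultures, so it cannot exclude such a change.

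The inverted promoter was compared with WT and with pKO. These comparisons share libraries with each other and with the one above, and again no gene passed in either (0% of 10265 in edgeR's test, with 152 and 153 at an unadjusted p under 0.05, and 0 by DESeq2). With 1 pInv library, their spread came from the WT and pKO pairs and the prior over genes, and pInv is assumed to vary like them. Eomes differed by 0.02 on the log2 scale against WT (95% interval −0.84 to 0.87) and by 0.00 against pKO (−0.86 to 0.85). For T the log2 difference was 0.02 against WT (−1.81 to 1.85) and −0.70 against pKO (−2.52 to 1.13). The level of T in pInv, 178 CPM, lay below both pKO libraries and between the WT libraries, and without WT2 its log2 difference from WT was −0.72. Tbx3 had log2 differences of −0.39 against WT (−3.07 to 2.28) and −1.74 against pKO (−4.23 to 0.75), from 3 counts in pInv. Tbx6, with 2 counts in pInv, had −0.31 (−4.63 to 4.01) and −0.18 (−4.55 to 4.19).

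**Figure D3:**
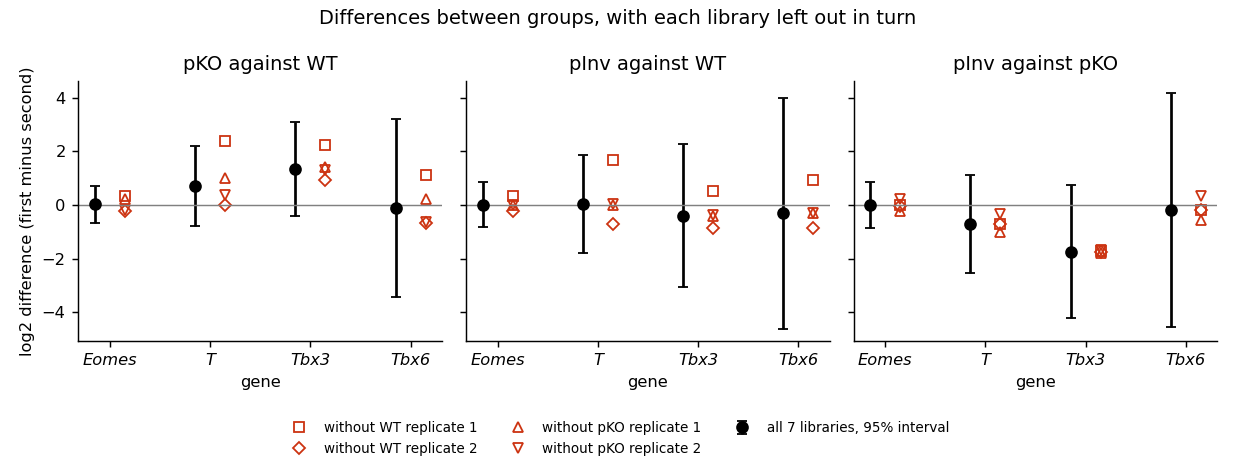
Log2 difference between groups (vertical axis) for each gene (horizontal axis) in the 3 tested comparisons, with black points and bars giving the fit of all 7 libraries with its 95% interval, and open symbols the value with 1 library left out. All 12 intervals include 0, and T for pKO against WT runs from −0.0020 to 2.39 as libraries are left out.

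The knockdown was set beside its control with 1 library each, and was given no test. Eomes and T stood level: KD held 0.948 times the Eomes of Ctrl (exact 95% counting interval 0.861 to 1.04) and 1.05 times the T (0.949 to 1.17). Tbx6 stood higher, with 15 counts against 3, a ratio of 4.55 (1.29 to 24.5), as did Tbx3, with 31 counts against 10, a ratio of 2.82 (1.35 to 6.45). Both intervals lie above 1 for counting error alone. Of 5083 genes at 20 CPM or more in either library, 4.03% were 2-fold or more higher in KD and 1.26% lower, or 5.29% in all, but Tbx3 and Tbx6 lie under that level and are not among them. Set against the same 2-fold size, Eomes and T did not reach it.

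Apart from Mga, the rest of the T-box family was nearly silent. Of 13 other members, 8 stayed below 1 CPM in all 7 libraries. Mga, a T-box protein that pairs with Max, was steady at 114 to 141 CPM, with log2 differences of 0.06, 0.01 and −0.05 in the 3 tested comparisons. Tbx21, a factor of T helper cells, was at 4.80 CPM in WT2, 2.12 in pInv and at most 0.51 in the other 5. Tbx20 reached 3.23 CPM in KD, Tbx4 1.80 CPM in WT2 and Tbx15 1.39 CPM in KD.

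Listed targets of Eomes and T were low where both were lowest, in WT2. Of 32 such genes 31 were matched, 13 of these averaged at least 20 CPM, and all 13 were lowest in WT2, where 29.3% of genes at that level were. Mixl1, a homeobox gene of the streak, had 7.20 CPM in WT2 and 52.1 to 127 elsewhere. Cer1, an endoderm antagonist of NODAL and BMP, had 5.40 CPM in WT2, 13.6 in pInv and 57.8 to 98.9 in the other 5. Lhx1, a homeobox factor of streak derivatives, likewise had 58.2 CPM in WT2, 258 in pInv and 492 to 1138 elsewhere. Mixl1, Fgf8, Evx1 and Mesp1 did not share the low level in pInv, where they stood at or just above their medians. Fst was there just below its median, at −0.01 on the log2 scale, and Foxa2 at −0.38. In KD, 8 of the 13 were at their highest, against 14.1% of all genes at that level. The mean that admitted them includes KD, and Kdr, Dll3 and Cyp26a1, all highest there, average under 20 CPM without it. Dll3 averaged 20.2 CPM with 44.8 in KD, Cyp26a1 23.9 with 50.3, and Kdr 33.3 with 119.6. Of 15 listed targets at 20 CPM or more in KD or Ctrl, 5 were 2-fold or more higher in KD (Kdr, Mesp2, Fgf3, Mesp1 and Lhx1) and 0 lower, where 4.03% of all such genes were higher and 1.26% lower. Of these 2 libraries Kdr, Mesp2 and Fgf3 reached 20 CPM only in KD, so the level that admitted them is the one in which they were high. Kdr, the VEGF receptor of blood and vessel precursors, stood at 119.6 CPM in KD against 18.3 in Ctrl, a ratio of 6.54 (4.61 to 9.55), and Mesp1, a cardiac mesoderm factor, at 243 against 71.6, a ratio of 3.40. Mesp2, a somite segmentation factor acting with Tbx6, stood at 34.2 against 5.08 CPM, a ratio of 6.73 (3.46 to 14.6). Evx1, Mesp2 and Fgf3 were named after their values were seen.

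**Figure D4:**
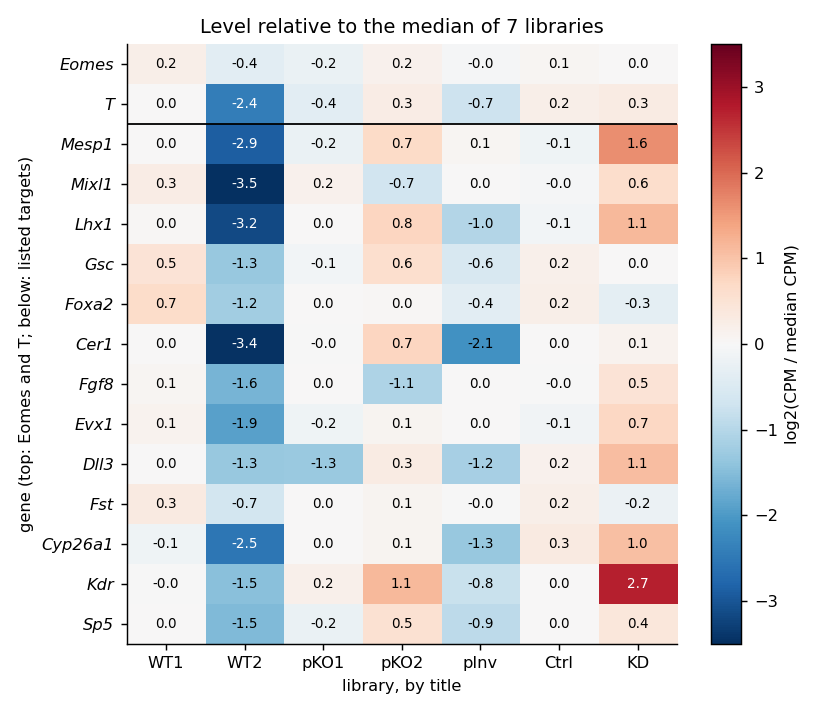
Log2 of each gene's CPM over its median of the 7 libraries (colour and printed value) for Eomes, T and the 13 listed targets averaging at least 20 CPM (rows), by library title (columns). WT2 is the lowest library for all 13 targets, at −3.4 for Cer1 and −2.4 for T but −0.4 for Eomes, and Kdr reaches 2.7 in KD.

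In the tested comparisons none of 23 tested targets passed in edgeR's test. For pKO against WT, 20 were higher and 3 lower, with a median log2 difference of 0.41 beside 0.00 for all genes. Without WT2 the split was 12 to 11 and the median 0.07. Lhx1, Cer1, Kdr and Mesp1 had the largest differences, at 1.24, 1.22, 1.20 and 1.07. For pInv against pKO, 3 were higher and 20 lower (median −0.84, beside 0.00), led by Cer1 at −2.45 and Lhx1 at −1.44. Leaving out pKO2 gave 6 higher and 17 lower with a median of −0.43. For pInv against WT, 6 were higher and 17 lower (median −0.31), but 19 were higher and 3 lower without WT1, and 1 higher and 22 lower without WT2. With groups from the genotype field, pKO against WT turned to 5 higher and 18 lower (median −0.24). There pInv against pKO turned to 15 higher and 8 lower (0.33), and pInv against WT gave 10 higher and 13 lower (−0.13).

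Genes that act on Eomes and T were closer to even in the tested comparisons, but not in KD. Of 26 tested ligands, receptors and effectors of NODAL, WNT, BMP and FGF signalling, none passed in edgeR's test in any comparison, and the medians were 0.10, 0.06 and −0.02. Foxh1, a DNA-binding partner of SMAD proteins, had 28.2 CPM in WT2 and 55.8 to 87.3 elsewhere, and Tdgf1, the NODAL coreceptor, 70.2 CPM in WT2 and 158 to 372 elsewhere. Wnt8a went the other way, with 87.6 CPM in WT2 and 28.6 to 60.3 elsewhere. Of 19 listed genes averaging at least 20 CPM, 8 were lowest in WT2, beside 29.3% of all genes at that level. Highest in KD were 11 of the 19, beside 14.1%. For listed genes at 20 CPM or more in KD or Ctrl, the median log2 ratio of KD to Ctrl was 0.41, beside −0.03 for all. In KD the ligand Nodal was at 42.5 CPM against 81.2 in Ctrl (ratio 0.523, interval 0.400 to 0.680), and its antagonist Lefty2 at 230.4 against 117 (1.97, 1.68 to 2.32). Of 21 such genes at 20 CPM or more, 0 were 2-fold higher and 1, Lefty1, lower (0.395, 0.231 to 0.655), named after its value was seen. Of all such genes 1.26% were lower, so 1 of 21 is no result about the list.

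Among genes tied to Tbx3 in stem cells, 0 of 10 tested passed in edgeR's test in any comparison. Their median log2 difference between pKO and WT was 0.21, and that of pInv was −0.16 against WT and −0.40 against pKO. In KD, Sox2, a pluripotency and neural factor, had 0.404 times its level in Ctrl (0.317 to 0.511), the only 1 of 4 such genes at 20 CPM or more to reach 2-fold in either direction, as 5.29% of all genes at that level did. Of 15 tested T-box cofactors and chromatin partners, 0 passed in any comparison, and 0 of 12 reached 2-fold in KD. Max, the partner of Mga, had log2 differences of 0.91 for pInv against WT and 0.82 for pInv against pKO, and Kdm6a, a histone demethylase, 0.63 for pKO against WT.

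The genes most like Eomes over the 7 libraries were Rtl8b, Uck2, Cep350, Pam and Ufm1 (Pearson's r of log2(CPM + 1) from 0.942 to 0.958, of 4556 genes ranked). For T they were Rplp0, Zfand6, Rab18, Lmnb1 and Rbm47 (0.971 to 0.980). All 5 of the latter are lowest in WT2. With the 2 libraries farthest from the median of T left out (WT2 and pInv), r ran from 0.435 for Lmnb1 to 0.987 for Zfand6. Eomes and T had an r of 0.804 with each other, and 0.470 without WT2 and pKO1, the libraries farthest from the median of Eomes, or 0.696 without WT2 and pInv. The 95th percentile of r over all genes ranked was 0.833 with T and 0.681 with Eomes. These are descriptions over 7 points that share library depth and scaling.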

How the data were processed

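3′ RNA-seq (Lexogen QuantSeq, per the labels' protocols) of 7 libraries was used. For each library the authors deposited an RSEM table with expected counts, TPM and FPKM per gene, per the file headers. The submitters' processing notes name the build mm9 and RSEM, without a version. How reads were trimmed, stranded or deduplicated: not given in the sources used here. The expected counts deposited by the authors were rounded to whole numbers. The authors' TPM values, relative to length and a fixed total, served to set genes side by side, and the deposited FPKM values were not used.

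Testing used edgeR 4.0.16 (R 4.3.3): filterByExpr by group kept 10265 features, TMM scaling, 1 quasi-likelihood fit of all 7 libraries with a coefficient per group, a prior count of 2, and calls at a Benjamini-Hochberg adjusted p under 0.05 over all features. Residual degrees of freedom were 2, with 5.86 more from the prior. Intervals of log2 differences use its standard errors. For KD against Ctrl, ratios carry exact binomial 95% intervals, and genes at 20 CPM or more were called at 2-fold. A count of 0 allows up to 3 counts. No source mentions molecular identifiers, so intervals cover counting error only. The steps were tested on simulated counts. Names and neighbours came from RefSeq and GENCODE M21 tables of GRCm38, which is not the build of the files.

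The members and lists were chosen with earlier results of these data known. Genes named are the 4 members, other T-box genes at 1 CPM or more, the 5 most correlated genes for members at a mean of 20 CPM or more, and up to 4 genes per list with the largest difference at that level. DESeq2 1.42.0, other size factors, no count filter, the 45S precursor left out, each WT and pKO library left out, groups from the genotype field and a replicate block were tried as alternatives.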

Additional observations from a re-analysis of the deposited data

How the results depend on the processing

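In none of 114 recomputed differences of the 4 genes did a gene pass the threshold (smallest adjusted p 0.15, in edgeR or DESeq2), and 92 kept their direction. With groups from the genotype field, pKO against WT gave log2 differences of −0.11 for Eomes, −0.60 for T, −0.76 for Tbx3 and 0.012 for Tbx6. There pInv against WT gave −0.31, −0.23 and 0.55 for Eomes, T and Tbx3, with 7 genes called, and pInv against pKO gave 0.36 for T and 1.31 for Tbx3. With the 45S precursor left out, Eomes for pInv against WT was −0.0059. With 1 library left out, the log2 differences for pKO against WT ran from −0.21 to 0.33 for Eomes, −0.0020 to 2.39 for T, 0.93 to 2.25 for Tbx3 and −0.66 to 1.11 for Tbx6. For pInv against WT they ran from −0.24 to 0.32 for Eomes, −0.72 to 1.69 for T, −0.85 to 0.52 for Tbx3 and −0.86 to 0.92 for Tbx6. For pInv against pKO they ran from −0.21 to 0.21 for Eomes, −1.01 to −0.34 for T, −1.80 to −1.70 for Tbx3 and −0.55 to 0.34 for Tbx6. Without WT1 the WT group has 0 counts of Tbx6, so its difference then depends on the prior count. Genes called ranged from 0 to 7 for pKO against WT and for pInv against pKO, the 7 without pKO2. Without a count filter 9, 6 and 8 genes passed in pKO against WT, pInv against WT and pInv against pKO, and with a minimum of 10 CPM 694 genes passed the size rule for KD in place of 269. The cause of these shifts was not tested. The titles of WT and pKO share numbers, but nothing says that a number pairs libraries. The differences between numbers 2 and 1 correlated at 0.311 over 10265 genes. With a replicate block (WT and pKO only) the log2 difference was 0.04 for Eomes, 1.07 for T and 1.43 for Tbx3, and 0 genes passed. Leaving libraries out for the gene lists was added after seeing the data. Depth limits Tbx3 and Tbx6 to 82 and 31 counts.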

Other observations

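The 2 pKO libraries did not order all listed targets the way they ordered T, which was 353 CPM in pKO2 and 226 in pKO1. Lhx1 and Kdr were also higher in pKO2, at 884 against 521 CPM and 39.8 against 20.5 CPM. Fgf8, a streak ligand, and Mixl1 were lower there, at 27.1 against 57.3 CPM and 52.1 against 92.7 CPM. Tfap2c, a factor of trophoblast and germ cell precursors, stood at 1.80 CPM in WT2 and at 19.8 CPM or more elsewhere. These genes were picked after their values were seen, and no test was made.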
